A study of Mus musculus with 6 samples.

Results

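The enzymes that write, copy and remove DNA methylation were examined in mouse two-cell embryos that carried an excess of the SUMO ligase PIASy. The set was 10 genes of the 53023 in the table, taken by gene name. They were the methyltransferases Dnmt1, Dnmt3a and Dnmt3b with their cofactors Dnmt3l and Uhrf1, the dioxygenases Tet1, Tet2 and Tet3, the DNA glycosylase Tdg, and Dppa3, which is also known as Stella or PGC7.

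RNA-seq was performed on ICR two-cell embryos collected at 28 h post insemination (hpi), with 2 libraries per group and a pool of 5 embryos in each library. The non-injection group received no mRNA. The PIASy-WT group received mRNA for wild-type PIASy, and the PIASy-Mut group received mRNA for PIASy with the C335F change that removes its SUMO ligase activity. Injected zygotes were given 100 ng/µl of mRNA in the cytoplasm between 1.5 and 3 hpi and were kept if they showed fluorescence at 9 hpi, so PIASy-Mut shares the injection and the selection with PIASy-WT and the non-injection group shares neither. Injected embryos were cultured in KSOM. The methods describe replicates as biological in general, and the sources used here do not state whether the pools of a group came from separate litters or inseminations, so the P-values measure the spread between these pools.

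DNA methylation is written de novo on unmethylated CpG by DNMT3A and DNMT3B, a step that DNMT3L stimulates without being an active enzyme itself. It is copied at replication by DNMT1, which UHRF1 brings to hemimethylated DNA. TET enzymes oxidize 5-methylcytosine, and TDG excises the later oxidation products for base excision repair. After fertilization the paternal genome in particular loses methylation, TET3 is the main maternal TET enzyme, and the maternal protein DPPA3 protects the maternal genome from that oxidation and keeps UHRF1 away from chromatin in the oocyte.

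The libraries held between 871663 and 1363928 fragments on genes, so genes of this set other than Dppa3 were read from at most 172 fragments in any library. Two-cell transcripts were present in all groups: their summed FPKM (fragments per kilobase of gene relative to depth) was between 1475 and 1750 in the 4 libraries of the other groups and was 1065 and 778 in the PIASy-WT libraries. Of 12 cumulus cell markers, 4 had no fragment in any library, and among 7 sperm markers 3 had none. The summed FPKM of the cumulus list was 7.97 and 7.40 in PIASy-WT against 10.4 to 12.0 in the other 4 libraries. Of that sum Amhr2 held 1.13 and 1.74 in PIASy-WT against 4.58 to 8.06 in the other 4. The sperm list summed to 4.92 and 5.89 FPKM without injection, 1.96 and 3.60 after PIASy-Mut and 3.38 and 2.73 after PIASy-WT. Blastocyst markers summed to 25.1 and 25.2 FPKM in PIASy-WT against 8.59 to 15.5 in the other 4 libraries. Summed oocyte transcripts were between 3704 and 5935 FPKM in those 4 libraries and reached 8522 and 7399 with PIASy-WT. The part of these marker differences in the results below was not tested. FPKM is a share of each library, so total RNA per embryo was not compared, and in these bulk pools fewer cells of a type and less RNA per cell cannot be told apart.

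The sequences in front of the transcription starts are shown first for 4 of the genes. RefSeq promoter windows, of 250 bases before and 50 bases after a start on GRCm38.p6, the assembly also called mm10, were found for 9 of the 10 genes and numbered 16. Capitals mark CpG, the dinucleotide that the enzymes themselves methylate, and only bases outside the exons of the same gene are printed. Dnmt3a and Tet1 had lower levels in PIASy-WT than in every other library, Tet3 had higher ones, and the Dnmt1 start shown holds the fewest CpG of all 16 windows.
Dnmt3a, start at 3806980 of chromosome 12, plus strand, chr12:3806730-3806979: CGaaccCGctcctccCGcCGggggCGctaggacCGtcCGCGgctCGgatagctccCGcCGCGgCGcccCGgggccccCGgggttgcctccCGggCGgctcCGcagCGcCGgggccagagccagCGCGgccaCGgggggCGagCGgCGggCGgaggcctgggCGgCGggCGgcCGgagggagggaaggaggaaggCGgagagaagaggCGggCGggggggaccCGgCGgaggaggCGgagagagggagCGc
Tet1, chromosome 10, minus strand, chr10:62887325-62887412: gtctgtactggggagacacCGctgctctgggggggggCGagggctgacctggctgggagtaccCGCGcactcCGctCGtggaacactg
Tet3, chromosome 6, minus strand, chr6:83441679-83441928: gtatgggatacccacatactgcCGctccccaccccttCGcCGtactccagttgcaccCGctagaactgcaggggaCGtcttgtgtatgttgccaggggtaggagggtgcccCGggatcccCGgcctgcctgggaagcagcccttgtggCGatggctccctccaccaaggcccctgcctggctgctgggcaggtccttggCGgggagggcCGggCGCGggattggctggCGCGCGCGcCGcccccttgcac
Dnmt1, most upstream start, chromosome 9, minus strand, chr9:20959889-20960138: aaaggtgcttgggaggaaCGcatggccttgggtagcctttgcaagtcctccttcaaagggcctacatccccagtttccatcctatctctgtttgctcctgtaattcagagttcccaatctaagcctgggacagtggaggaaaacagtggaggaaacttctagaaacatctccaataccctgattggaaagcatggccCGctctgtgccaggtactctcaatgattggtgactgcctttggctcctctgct

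The printed Dnmt3a stretch lies inside the annotated span of the gene and holds 38 CpG in 250 bases, Tet3 holds 17, and the upstream Dnmt1 start holds 2. In the full window of 300 bases, the 2 adjacent Dnmt3a starts held 46 and 47 CpG and the Tet2 start held 57, and at most 1.65% of all 32851 windows held as many. More CpG than the median of 7 over all windows were present in 12 of the 16. On either strand, GGGCGG was present in 12 of the 16 windows against 35.7% of all windows, CCAAT in 6 against 37.4%, CACGTG in 3 against 7.15% and TATAAA in 0 against 13.6%. The windows of 1 gene overlap or share a gene, so the 16 are not independent. These matches describe letters only. The deposited levels are per gene, and the 3 RefSeq starts of Dnmt1, of Dnmt3a and of Dnmt3l cannot be told apart in them, including the oocyte form of Dnmt1 that begins at another first exon.

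The 10 genes covered a wide range of levels. Dppa3 had the highest mean over the 6 libraries with 4507 FPKM, followed by Dnmt3l with 24.8, Uhrf1 with 9.74, Tet3 with 6.83, Dnmt3a with 4.82, Dnmt1 with 4.33, Tet1 with 1.97, Dnmt3b with 1.66 and Tet2 with 0.628, and Tdg was listed at 0. These levels are per length of gene. The ranges of neighbours in this order did not overlap between Dppa3 and Dnmt3l, between Dnmt3l and Uhrf1, or between Dnmt3b and Tet2. From Uhrf1 down to Dnmt3b each gene overlapped its neighbour.

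All 6 libraries entered 1 limma fit on log2(FPKM + 1), restricted to the 16100 genes that reached an FPKM of 1 in 2 or more libraries, and a gene was called at a Benjamini-Hochberg adjusted P of at most 0.05. A fold change on this scale is understated for genes with a low FPKM. Of the 10 genes 8 entered the test, and Tet2 and Tdg did not. In PIASy-WT against non-injection 0 of the 8 were called, where 5.76% of all tested genes were called lower and 1.03% higher. In PIASy-WT against PIASy-Mut 0 of the 8 were called, where 6.01% were called lower and 0.82% higher. In PIASy-Mut against non-injection 0 of the 8 were called, where 0.0% were called lower and 0.00621% higher. At an unadjusted P under 0.05 there were 1, 2 and 0 of the 8 in these comparisons, against 28.2%, 27.7% and 4.46% of all tested genes. The voom test on recovered fragments, an alternative described with the genes below, called 1, 2 and 0 of the 8, all of them lower. By voom 11.8% of all tested genes were called lower and 4.99% higher in PIASy-WT against non-injection, 11.7% lower and 3.31% higher against PIASy-Mut, and 0.0% lower and 0.00621% higher in PIASy-Mut against non-injection. Both PIASy-WT libraries were below all 4 others for 4 of the 8 genes and above them for 1, where 24.4% and 19.9% of all tested genes had these patterns. The median log2 fold change of the 8 was -0.18, -0.28 and 0.09, beside 0.01, -0.03 and 0.04 over all tested genes. The comparisons share libraries, and their values are therefore given side by side. With 2 pools per group, an exact permutation test of a single gene cannot give a two-sided P below 0.333.

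**Figure D1:**
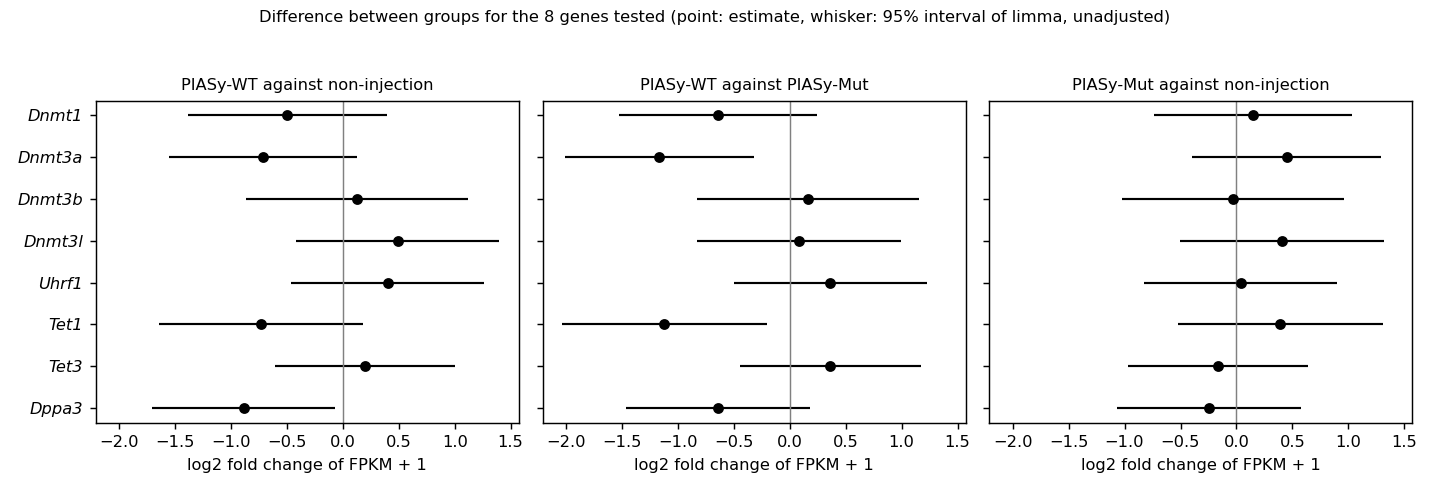
Log2 fold change of FPKM + 1 (horizontal axis) for the 8 tested genes in the 3 comparisons, with the estimate as a point and its 95% interval by limma, before adjustment, as a line. Intervals leave out 0 only for Dppa3 in PIASy-WT against non-injection and for Dnmt3a and Tet1 in PIASy-WT against PIASy-Mut, and none of these passed the adjustment over 16100 genes.

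Dnmt3a, the de novo methyltransferase that sets the methylation of the growing oocyte, lies on the plus strand of chromosome 12 of mm10 from 3806007 to 3914443. Its level was 5.07 and 4.62 FPKM without injection, 8.15 and 5.93 FPKM after PIASy-Mut and 2.36 and 2.77 FPKM after PIASy-WT. Both PIASy-WT libraries lay below all 4 others, from 52 and 53 fragments against 86 to 140, and both PIASy-Mut libraries lay above both non-injection libraries. Group means were 4.84 ± 0.314 without injection, 7.04 ± 1.57 after PIASy-Mut and 2.56 ± 0.292 after PIASy-WT (SD, n = 2), and the PIASy-WT mean was 0.529 of that in non-injection and 0.364 of that in PIASy-Mut. The log2 fold change was -1.16 in PIASy-WT against PIASy-Mut, with a 95% interval from -2.00 to -0.32 and a limma adjusted P=0.0951. Against non-injection it was -0.71 (from -1.56 to 0.13, limma adjusted P=0.234). When whole fragments recovered from FPKM were tested instead with voom, which weights each value by its expected precision, Dnmt3a fell by 1.45 on the log2 scale against PIASy-Mut and was called (adjusted P=0.0152). The voom value against non-injection was -0.92 (adjusted P=0.0885), the largest difference of the 16 alternatives, and the smallest was -0.38 with a pseudocount of 5. Over all 16 alternatives to the test, the log2 fold change against PIASy-Mut was between -1.45 with voom and -0.66 with a pseudocount of 5, and the adjusted P between 0.0152 and 0.296. The antisense gene Dnmt3aos shares 133 exon bases with Dnmt3a and had 0 and 1 fragments without injection, 1 and 1 after PIASy-Mut and 3 and 6 after PIASy-WT. The sources used here do not state whether strand was used in counting, so its reads and those of Dnmt3a cannot be told apart in the shared bases.

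Dnmt1, the maintenance methyltransferase, lies on the minus strand of chromosome 9 from 20907209 to 20959888. It was read at 4.17 and 5.15 FPKM without injection, at 5.38 and 5.13 FPKM after PIASy-Mut and at 3.78 and 2.36 FPKM after PIASy-WT. The PIASy-WT libraries were again below the other 4, but the lower of the non-injection libraries was close to the higher PIASy-WT one, with 42 and 37 fragments. PIASy-WT differed from non-injection by -0.49 on the log2 scale (from -1.38 to 0.39, limma adjusted P=0.417) and from PIASy-Mut by -0.64 (from -1.53 to 0.24, limma adjusted P=0.310). Both intervals include 0. Without single libraries these values ran from -0.75 to -0.24 and from -0.90 to -0.39, the smallest difference in each without PIASy-WT replicate 2.

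Dnmt3b, the other active de novo enzyme, lies on the plus strand of chromosome 2 from 153649450 to 153687730 and was near the filter. Levels were 2.01 and 1.21 FPKM without injection, 1.71 and 1.35 FPKM after PIASy-Mut and 1.48 and 2.22 FPKM after PIASy-WT, and the groups overlapped. These values rest on 6 to 14 fragments. On the log2 scale the difference of PIASy-WT from non-injection was 0.13 (from -0.86 to 1.12, limma adjusted P=0.864), and that from PIASy-Mut was 0.16 (from -0.83 to 1.16, limma adjusted P=0.834), and both intervals include 0. The neighbouring paralog Dnmt3c, which methylates young retrotransposons in male germ cells, shares 9.81% of the 50-base words of Dnmt3b. Dnmt3c was read at 3.63 and 1.59 FPKM without injection and at 0.872 and 1.03 FPKM after PIASy-Mut, and it had no fragment in either PIASy-WT library. The fragments behind these values numbered 11 and 4 without injection and 2 in each PIASy-Mut library.

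Dnmt3l, the stimulating cofactor of the de novo enzymes, lies on the plus strand of chromosome 10 from 78041947 to 78063622 and was the most abundant of the writing genes. It was read at 17.9 and 20.7 FPKM without injection, at 19.1 and 34.9 FPKM after PIASy-Mut and at 22.7 and 33.2 FPKM after PIASy-WT. Both PIASy-WT libraries were above non-injection, but the PIASy-Mut libraries overlapped both groups. Setting PIASy-WT against non-injection gave a log2 fold change of 0.49 (from -0.42 to 1.40, limma adjusted P=0.430), and setting it against PIASy-Mut gave 0.08 (from -0.83 to 0.99, limma adjusted P=0.917). The value against non-injection was between 0.23 and 0.75 when PIASy-WT replicate 2 or 1 was left out. The level of Dnmt3l relative to Dnmt3a was 3.54 and 4.48 without injection, 2.35 and 5.89 after PIASy-Mut and 9.64 and 12.0 after PIASy-WT, and this ratio was higher in both PIASy-WT libraries than in the other 4. The ratio was not tested.

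Uhrf1, which recognizes hemimethylated CpG and recruits DNMT1, lies on the plus strand of chromosome 17 from 56303321 to 56323486. Its level was 10.8 and 6.64 FPKM without injection, 7.51 and 10.2 FPKM after PIASy-Mut and 12.6 and 10.6 FPKM after PIASy-WT. The lower PIASy-WT library lay just below the higher non-injection library. PIASy-WT differed from non-injection by 0.40 on the log2 scale (from -0.46 to 1.26, limma adjusted P=0.496) and from PIASy-Mut by 0.36 (from -0.50 to 1.22, limma adjusted P=0.541). Leaving out single libraries moved the first value between 0.085 (without non-injection replicate 2) and 0.72 (without non-injection replicate 1), and the second between 0.16 and 0.56 (without PIASy-Mut replicates 1 and 2). Relative to Dnmt1, its level was 2.60 and 1.29 without injection, 1.39 and 1.99 after PIASy-Mut and 3.32 and 4.50 after PIASy-WT. The X-linked pseudogene Gm5648 shares 14.7% of the 50-base words of Uhrf1 and had at most 1 fragment in any library.

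**Figure D2:**
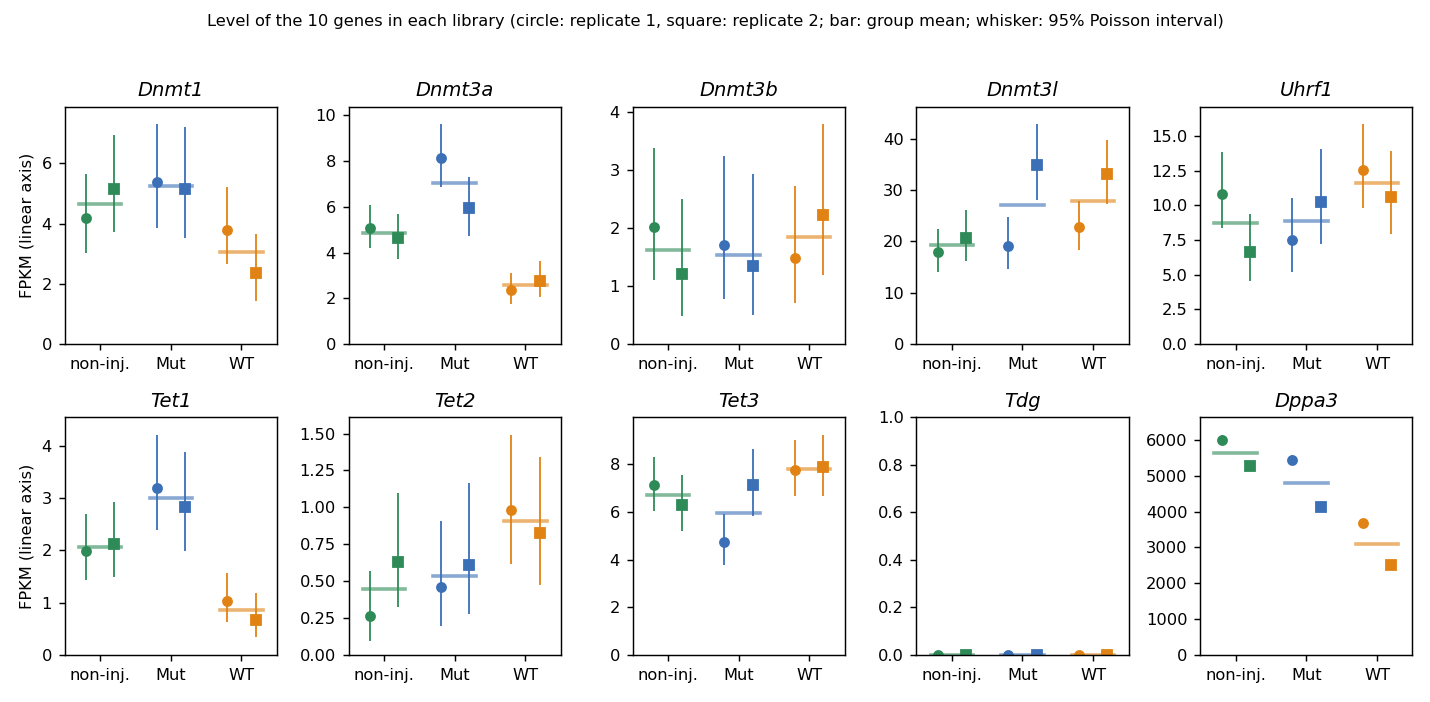
FPKM (vertical axis, linear, with its own scale for each gene) of the 10 genes in the 3 groups (non-inj. for non-injection, Mut and WT for both forms of PIASy), with a circle for replicate 1, a square for replicate 2, a bar for the group mean and a line for the 95% Poisson interval of the fragments, which for Dppa3 is shorter than the symbol and is not drawn for Tdg, listed at 0. Both PIASy-WT libraries lie below all others for Dnmt1, Dnmt3a, Tet1 and Dppa3 and above all others for Tet2 and Tet3.

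Tet3, the dioxygenase that the oocyte stores and that acts in the zygote, lies on the minus strand of chromosome 6 from 83362373 to 83459084. It was read at 7.11 and 6.30 FPKM without injection, at 4.76 and 7.15 FPKM after PIASy-Mut and at 7.77 and 7.87 FPKM after PIASy-WT. Both PIASy-WT libraries were above all 4 others, by a margin that is small beside the spread within PIASy-Mut. On the log2 scale the difference of PIASy-WT from non-injection was 0.20 (from -0.61 to 1.00, limma adjusted P=0.729), and that from PIASy-Mut was 0.36 (from -0.44 to 1.17, limma adjusted P=0.511). The first became 0.12 without non-injection replicate 2 and 0.42 under quantile normalization. The second became 0.11 or 0.62 without PIASy-Mut replicate 1 or 2, and 0.63 under quantile normalization. The levels rest on 82 to 172 fragments per library.

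Tet1, the dioxygenase known from primordial germ cells and embryonic stem cells, lies on the minus strand of chromosome 10 from 62804570 to 62908996. Its level was 1.99 and 2.12 FPKM without injection, 3.20 and 2.82 FPKM after PIASy-Mut and 1.03 and 0.675 FPKM after PIASy-WT. The 3 groups did not overlap, with PIASy-WT lowest and PIASy-Mut highest, the same order as for Dnmt3a. Group means were 2.05 ± 0.0881 without injection, 3.01 ± 0.266 after PIASy-Mut and 0.850 ± 0.247 after PIASy-WT (SD, n = 2). The PIASy-WT mean was 0.414 of the mean in non-injection and 0.283 of that in PIASy-Mut. PIASy-WT minus PIASy-Mut was -1.12 on the log2 scale (from -2.03 to -0.21, limma adjusted P=0.120), and PIASy-WT minus non-injection was -0.73 (from -1.64 to 0.19, limma adjusted P=0.259). On recovered fragments, 21 and 12 in PIASy-WT against 51 and 38 in PIASy-Mut, voom gave -1.81 against PIASy-Mut and Tet1 was called lower (adjusted P=0.0189). Against non-injection voom gave -1.26 (adjusted P=0.0767), and a pseudocount of 5 gave -0.27. Over the 15 alternatives that kept Tet1 in the test, its log2 fold change against PIASy-Mut was between -1.81 with voom and -0.45 with a pseudocount of 5, and its adjusted P between 0.0189 and 0.358.

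Tet2, which lacks the DNA-binding CXXC domain of its relatives, lies on the minus strand of chromosome 3 from 133463679 to 133545139. Values were 0.261 and 0.629 FPKM without injection, 0.459 and 0.612 FPKM after PIASy-Mut and 0.984 and 0.825 FPKM after PIASy-WT, from 6 to 22 fragments. The PIASy-WT libraries were the highest, but Tet2 was below an FPKM of 1 in every library and was left out by the filter. Without a filter, setting PIASy-WT against non-injection gave a log2 fold change of 0.41 (from -0.50 to 1.32, limma adjusted P=0.562), and setting it against PIASy-Mut gave 0.31 (from -0.60 to 1.22, limma adjusted P=0.662).

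Tdg, the glycosylase that removes oxidized cytosines, lies on the plus strand of chromosome 10 from 82629828 to 82650799 and is listed at 0 in all 6 libraries. Ahcy, an enzyme gene of the methyl cycle that cells in general use, is also listed at 0 in all 6, so the 0 of Tdg is not read as a level. Tdg shares 41.2% of its 50-base words with other genes, its pseudogenes among them, and reads that map to more than 1 place were not counted, so part of the gene could not give a count. The pseudogenes Tdg-ps, Gm9855 and Gm5597 are also listed at 0 in every library.

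The make-up of the enzyme families is described without a test. The summed FPKM of Dnmt1, Dnmt3a and Dnmt3b was 11.3 and 11.0 without injection, 15.2 and 12.4 after PIASy-Mut and 7.62 and 7.34 after PIASy-WT. The summed FPKM of Tet1, Tet2 and Tet3 was 9.37 and 9.05 without injection, 8.41 and 10.6 after PIASy-Mut and 9.78 and 9.37 after PIASy-WT. The methyltransferase sum was thus lowest in PIASy-WT, whereas the TET sum of the PIASy-WT libraries lay within the range of the other 4. Within the TET sum the parts differed. Tet3 made up 75.9% and 69.7% without injection, 56.6% and 67.6% after PIASy-Mut and 79.5% and 84.0% after PIASy-WT. Tet1 made up 21.3% and 23.4%, 38.0% and 26.7%, and 10.5% and 7.21% in the same order. The ratio of Tet3 to Tet1 was 3.57 and 2.98 without injection, 1.49 and 2.53 after PIASy-Mut and 7.58 and 11.7 after PIASy-WT.

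**Figure D3:**
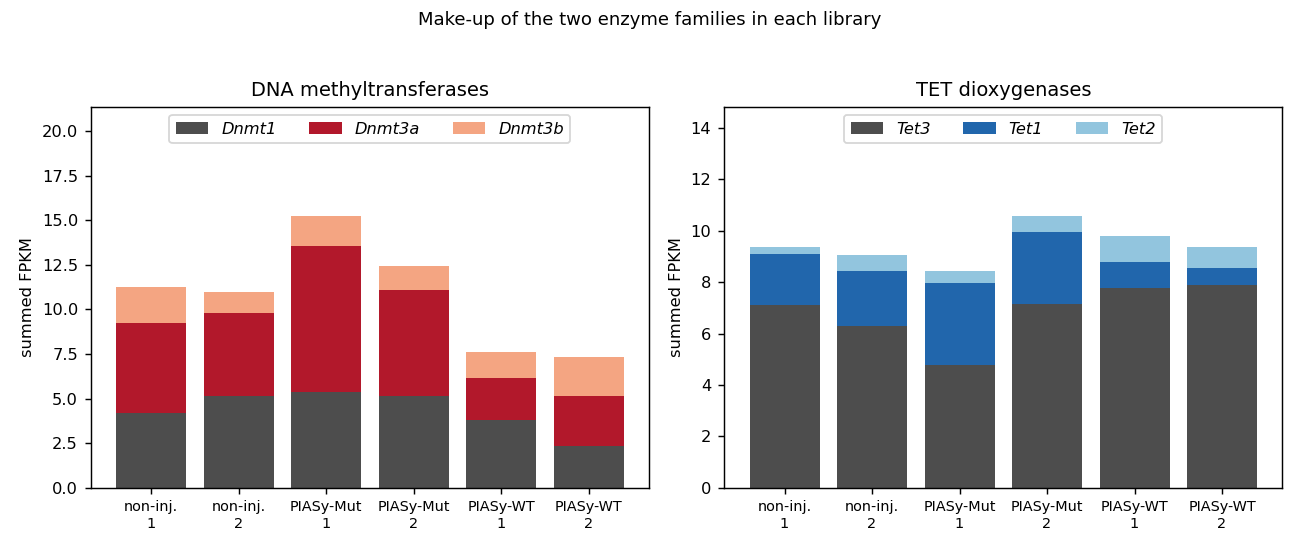
Summed FPKM (vertical axis) of Dnmt1, Dnmt3a and Dnmt3b (left) and of Tet3, Tet1 and Tet2 (right) in each of the 6 libraries, stacked by gene. The methyltransferase sum is 7.62 and 7.34 in PIASy-WT against 11.0 to 15.2 in the other libraries, and the TET sum is between 8.41 and 10.6 in all libraries.

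Dppa3, the maternal-effect gene that shields the maternal genome from oxidation, lies on the plus strand of chromosome 6 from 122626410 to 122630272 and was among the most abundant transcripts of these embryos. It was read at 6001 and 5264 FPKM without injection, at 5444 and 4137 FPKM after PIASy-Mut and at 3681 and 2516 FPKM after PIASy-WT, and both PIASy-WT libraries were below the other 4. By FPKM it held ranks 7 and 7 in the whole table without injection, 3 and 8 after PIASy-Mut and 11 and 17 after PIASy-WT. With 2580 to 7301 fragments, counting error was small beside the spread between pools. Group means were 5633 ± 521 without injection, 4791 ± 923 after PIASy-Mut and 3099 ± 824 after PIASy-WT (SD, n = 2). The PIASy-WT mean was 0.550 of that in non-injection and 0.647 of that in PIASy-Mut. PIASy-WT differed from non-injection by -0.88 on the log2 scale (from -1.70 to -0.07, limma adjusted P=0.153) and from PIASy-Mut by -0.64 (from -1.46 to 0.18, limma adjusted P=0.277). With voom, Dppa3 fell by 0.88 against non-injection and was called (adjusted P=0.0111), and the value against PIASy-Mut was -0.64 (adjusted P=0.0553). Over all 16 alternatives the adjusted P against non-injection was between 0.0111 and 0.597. Against PIASy-Mut the log2 fold change was between -1.15 under quantile normalization (adjusted P=0.133) and -0.37 without PIASy-WT replicate 2, and 0 of the 16 called it. The processed pseudogene Dppa3-ps on the X chromosome shares 16.0% of the 50-base words of Dppa3. Its level was 94.3 and 70.6 FPKM without injection, 98.8 and 63.6 FPKM after PIASy-Mut and 51.9 and 21.2 FPKM after PIASy-WT.

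Injection of the mutant mRNA was compared with no injection. The 8 tested genes had log2 fold changes from -0.24 for Dppa3 to 0.45 for Dnmt3a, all with a limma adjusted P=1. The interval was from -0.39 to 1.29 for Dnmt3a, from -0.52 to 1.31 for Tet1 and from -1.06 to 0.57 for Dppa3. Both PIASy-Mut libraries were above both non-injection libraries for 2 of the 8, Dnmt3a and Tet1, and for 15.0% of all tested genes. The value of Dppa3 turned to 0.19 under quantile normalization, and that of Uhrf1, 0.04 as deposited, turned to -0.01 under quantile normalization and under median ratio scaling.

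Genes that act next to these enzymes were taken from lists of the pathway and counted in the same fit. Limma called 5.76% of all tested genes lower and 1.03% higher against non-injection, and 6.01% and 0.82% against PIASy-Mut. The voom shares were 11.8% and 4.99%, and 11.7% and 3.31%. An unadjusted P under 0.05 was found for 28.2% and 27.7% of all tested genes, and for 4.46% in PIASy-Mut against non-injection. In PIASy-Mut against non-injection 0 genes of the 5 lists that follow (readers, maintenance and targeting factors, methyl donor synthesis, TET partners and base excision repair) were called by limma or voom. At an unadjusted P under 0.05 there were 3 base excision repair genes and 0 of the other 4 lists. Of the 6 tested readers of methylated DNA 0 were called in either comparison of PIASy-WT, by limma, and none of them reached an unadjusted P under 0.05 or was called by voom. Of the 8 tested maintenance and targeting factors 1 fell in both comparisons. This was Hells, the chromatin remodeller LSH, read at 23.4 and 33.4 FPKM without injection, at 31.6 and 26.3 FPKM after PIASy-Mut and at 10.6 and 8.57 FPKM after PIASy-WT, with no overlap. Hells fell by 1.46 on the log2 scale against non-injection (limma adjusted P=0.0453) and by 1.50 against PIASy-Mut (limma adjusted P=0.0430). The median over its list was -0.22 relative to non-injection and -0.44 relative to PIASy-Mut on the log2 scale.

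Of the 13 tested genes of methyl donor synthesis 2 fell in both comparisons and 0 rose by limma, whereas voom called 2 and 3 lower. In each comparison voom called 1 higher, which was Mat2b, the regulatory subunit gene of the same enzyme as Mat2a. Over all tested genes limma called 5.76% and 6.01% lower, and voom 11.8% and 11.7%. Mat2a, the enzyme that makes S-adenosylmethionine from methionine and ATP, was read at 62.8 and 39.4 FPKM without injection, at 81.4 and 44.0 FPKM after PIASy-Mut and at 5.89 and 4.27 FPKM after PIASy-WT. It fell by 3.08 against non-injection (95% interval from -4.07 to -2.09, limma adjusted P=0.0251) and by 3.34 against PIASy-Mut (from -4.33 to -2.35, limma adjusted P=0.0224). Shmt1, the cytosolic enzyme that moves a one-carbon unit from serine to folate, was read at 40.6 and 46.7 FPKM without injection, at 69.1 and 31.9 FPKM after PIASy-Mut and at 5.25 and 6.27 FPKM after PIASy-WT. It fell by 2.72 against non-injection (limma adjusted P=0.0292) and by 2.83 against PIASy-Mut (limma adjusted P=0.0252). For both genes the PIASy-WT libraries were far below the other 4, which did not separate from each other. The median difference over the list on the log2 scale was 0.18 from non-injection and -0.14 from PIASy-Mut.

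Of the 13 tested TET partners and suppliers of 2-oxoglutarate, the cosubstrate of the dioxygenases, 0 fell by limma or voom. By limma 1 rose against non-injection and 2 rose against PIASy-Mut, and voom called 2 higher in each, Idh1 and Gadd45g. Over all tested genes limma called 1.03% and 0.82% higher, and voom 4.99% and 3.31%. Idh1, the cytosolic isocitrate dehydrogenase that produces 2-oxoglutarate, was read at 2.38 and 2.55 FPKM without injection, at 2.45 and 2.90 FPKM after PIASy-Mut and at 13.3 and 14.1 FPKM after PIASy-WT. It rose by 2.09 against non-injection (from 1.30 to 2.87, limma adjusted P=0.0307) and by 2.01 against PIASy-Mut (from 1.22 to 2.79, limma adjusted P=0.0294). Gadd45g, a stress-induced gene of a family linked to demethylation, was read at 9.38 and 6.78 FPKM without injection, at 4.13 and 11.7 FPKM after PIASy-Mut and at 46.3 and 34.9 FPKM after PIASy-WT. It rose by 2.35 against PIASy-Mut (limma adjusted P=0.0459), and its value against non-injection was 2.20 (limma adjusted P=0.0520), or 2.28 with voom (adjusted P=0.0112). The median over this list was -0.43 relative to non-injection and -0.18 relative to PIASy-Mut on the log2 scale.

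Of the 10 tested base excision repair genes, 1 fell against non-injection and 0 were called against PIASy-Mut by limma. The list holds other glycosylases beside TDG and the enzymes that act after them. At an unadjusted P under 0.05 there were 5 against non-injection and 3 against PIASy-Mut, beside 28.2% and 27.7% of all tested genes. Limma called 5.76% of all tested genes lower against non-injection. By voom 1 fell (Apex1) and 2 rose (the polymerase gene Polb and the glycosylase gene Neil3) against non-injection, and 1 rose (Neil3) against PIASy-Mut. Apex1, the endonuclease that cuts abasic sites, was read at 22.2 and 22.4 FPKM without injection, at 10.2 and 8.07 FPKM after PIASy-Mut and at 8.49 and 5.51 FPKM after PIASy-WT. It fell by 1.57 after PIASy-WT relative to non-injection (limma adjusted P=0.0450). The difference between PIASy-WT and PIASy-Mut was -0.36 (limma adjusted P=0.504), and the one between PIASy-Mut and non-injection was -1.21 (limma adjusted P=0.733). Both injected groups were thus below the non-injection libraries and overlapped each other. The median over the list was -0.10 relative to non-injection and -0.27 relative to PIASy-Mut on the log2 scale.

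**Figure D4:**
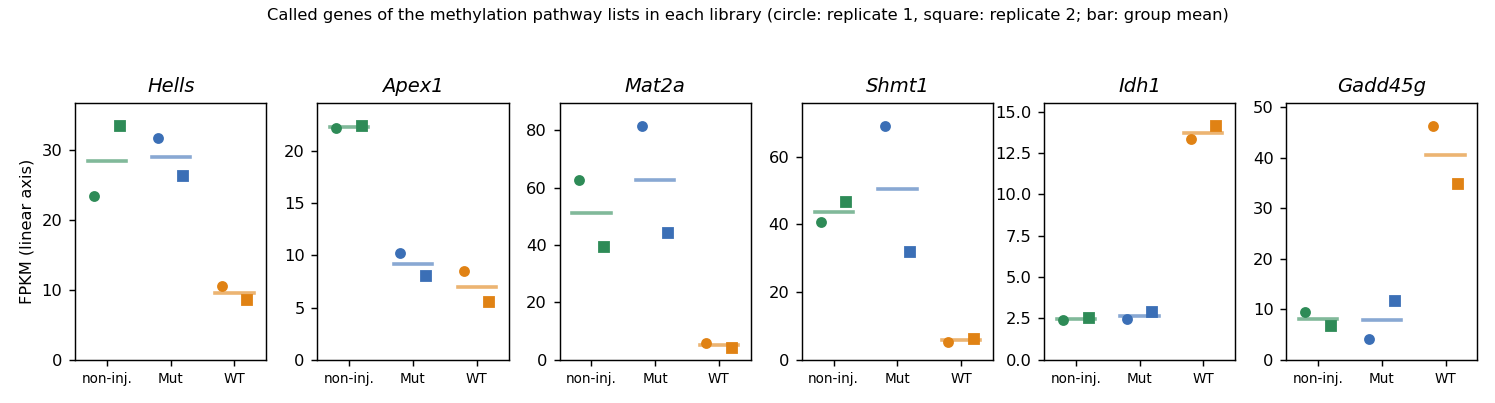
FPKM (vertical axis, linear, with its own scale for each gene) of Hells, Apex1, Mat2a, Shmt1, Idh1 and Gadd45g in the 6 libraries, with a circle for replicate 1, a square for replicate 2 and a bar for the group mean. PIASy-WT stands apart from both other groups for Hells, Mat2a, Shmt1, Idh1 and Gadd45g, and for Apex1 PIASy-Mut lies with PIASy-WT.

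The calls on these pathway genes depended on which libraries were in the fit. Over the 16 alternatives the log2 fold change against non-injection was between -3.40 and -2.45 for Mat2a, between -2.90 and -2.18 for Shmt1, between 1.33 and 2.43 for Idh1 and between -1.71 and -1.18 for Hells, and 0 of these changed sign. Without either non-injection or either PIASy-WT library, 0 genes of the whole table were called in PIASy-WT against non-injection, against 1094 with all libraries, and 2590 to 2991 genes had an unadjusted P under 0.05. In PIASy-WT against PIASy-Mut 0 genes were called in place of 1100 without any 1 library other than PIASy-Mut replicate 2, by limma, with 2610 to 3797 at an unadjusted P under 0.05, and 2628 were called without that one. With the recovered fragments voom called 2702 and 2414 genes in these comparisons. Over the 16 alternatives Mat2a remained called in 12 against non-injection and in 10 against PIASy-Mut, Shmt1 in 10 and 10, Idh1 in 11 and 9, Hells in 6 and 5, Gadd45g in 5 against PIASy-Mut, and Apex1 in 6 against non-injection. Gadd45g, not called against non-injection with all libraries by limma, passed there in 7.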

How the data were processed

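The authors trimmed the paired reads with Trim Galore, aligned them to mm10 with STAR and counted reads that mapped once with featureCounts. They deposited the result as FPKM, the unit used here. Tool versions are not given in the sources used here. FPKM times gene length was a whole number of fragments, within 0.01, for 100% of the 113271 values above 0, which gave the depths. Of the spike-in RNA added to the lysate, 0 rows are in the table. The genes and lists were chosen with earlier results of these data known. Named were all 10 genes, and up to 4 called genes of each other list. A search for genes with a like pattern was to follow only called members, and there were none. The test planned for counts was replaced by limma 3.58.1 (R 4.3.3, eBayes with a trend, 3 residual and 3.12 prior degrees of freedom) on log2(FPKM + 1), tested on simulated data. The 16 alternatives, pseudocounts of 0.1 and 5 among them, are given in the closing section. Poisson intervals (95%) cover counting error only, since reads had no molecular identifiers. Shared 50-base words were counted in GENCODE M21 transcripts. Tables were handled in pandas 2.3.3 and numpy 2.4.6 under Python 3.11.15, intervals came from scipy 1.17.1 and plots from matplotlib 3.10.9. Repeat elements were not analysed here.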

Additional observations from a re-analysis of the deposited data

How the results depend on the processing

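The number of called members was 0 in each comparison under all alternatives but voom, which called 1 in PIASy-WT against non-injection and 2 against PIASy-Mut; voom was not rerun without single libraries. Leaving out each library in turn gave 0 in each comparison, which shows nothing of stability in the fits where 0 genes of the whole table were called. Of 378 member values under the alternatives 14 changed sign. Leaving out single libraries gave PIASy-WT differences on the log2 scale of -0.093 to 0.35 from non-injection and of -0.025 to 0.35 from PIASy-Mut for Dnmt3b, and of -0.34 to 0.50 from PIASy-Mut for Dnmt3l. In PIASy-Mut against non-injection they ran from -0.26 to 0.19 for Dnmt3b, from -0.0097 to 0.83 for Dnmt3l, from -0.28 to 0.35 for Uhrf1 and from -0.42 to 0.082 for Tet3. There, quantile normalization turned Dppa3 to 0.19 and Uhrf1 to -0.0095, and median ratio scaling turned Uhrf1 to -0.012. Quantile normalization moved the median of all genes by 0.11 against non-injection and 0.15 against PIASy-Mut. Genes called in PIASy-WT against non-injection were 880 and 863 with pseudocounts of 0.1 and 5, 170 without a filter, 1773 at an FPKM of at least 5, 2293 in the 4 libraries alone, 315 without a trend, 2702 with voom, 711 where a log2 fold of 2 was asked as well, and 0 to 2313 without single libraries, the highest without PIASy-Mut replicate 2 and 2267 without PIASy-Mut replicate 1. Against PIASy-Mut they were 934, 889, 254, 1690, 0 (3776 at an unadjusted P under 0.05), 554 and 2414 in the first 7 settings, 614 under quantile normalization and 0 to 2628 without single libraries. The 1 gene called in PIASy-Mut against non-injection was lost in the 4 libraries alone (0, with 653 at an unadjusted P under 0.05), and the count was 0 to 1 without single libraries. The cause of these shifts was not tested. Of 416 values of the other named genes 155 lost their call, 9 gained one and 0 changed sign. The 416 include comparisons not called with all libraries, such as Apex1 against PIASy-Mut, which had no call to lose.

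The difference between replicates 1 and 2 had correlations of 0.00, 0.09 and 0.06 between groups over genes. Counting error lowers such correlations, so they cannot decide whether libraries of the same number belong together. Replicate 1 was the deeper library in every group. With the replicate block 808 genes were called in PIASy-WT against non-injection, 866 against PIASy-Mut and 1 in PIASy-Mut against non-injection, with 0 members in each. Dnmt3b and Tet2 rest on 22 fragments or fewer per library.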

Other observations

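Genes whose promoters are silenced by methylation outside the germ line were called in both directions by voom. Of 13 tested, 1 was called lower in both comparisons by limma, as were 5.76% and 6.01% of all tested genes. At an unadjusted P under 0.05 there were 7 in each, against 28.2% and 27.7% of all tested genes. Voom called 3 lower and 4 higher against non-injection and 2 lower and 2 higher against PIASy-Mut. It called 11.8% of all tested genes lower and 4.99% higher in the first comparison and 11.7% and 3.31% in the second. Dazl and Taf7l were called higher by voom in both. Dazl was read at 145 and 136 FPKM without injection, at 69.8 and 186 FPKM after PIASy-Mut and at 360 and 412 FPKM after PIASy-WT. Taf7l had at most 8 fragments outside PIASy-WT and 49 and 39 with it. The 1 gene called by limma was Sycp1, a component of the synaptonemal complex, read at 34.8 and 30.3 FPKM without injection, at 33.5 and 20.3 FPKM after PIASy-Mut and at 8.91 and 7.10 FPKM after PIASy-WT. It fell by 1.90 on the log2 scale against non-injection (limma adjusted P=0.0339) and by 1.60 against PIASy-Mut (limma adjusted P=0.0460), calls that held in 10 and 5 of 16 alternatives. The list's median was -0.01 and -0.00 in the 2 comparisons. Of 10 tested imprinted genes 1 rose against non-injection, where limma called 1.03% of all tested genes higher. Against PIASy-Mut 0 were called by limma or voom. At an unadjusted P under 0.05 there were 2 and 1 of the 10, and the list's medians were 0.36 and 0.46. Mest, a paternally expressed gene, was read at 9.48 and 9.64 FPKM without injection, at 16.9 and 18.3 FPKM after PIASy-Mut and at 23.5 and 26.0 FPKM after PIASy-WT. On the log2 scale the difference of PIASy-WT from non-injection was 1.29 (limma adjusted P=0.0427), and that from PIASy-Mut was 0.47 (limma adjusted P=0.295), and both injected groups lay above both non-injection libraries.

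Among 16 tested oocyte transcripts Zp3, a zona pellucida gene, was the 1 called by limma, and it fell by 1.57 and 1.67 against non-injection and PIASy-Mut, while the list's medians were 0.70 and 0.42 and voom called 3 and 2 of its genes higher. Of 12 tested two-cell transcripts Tdpoz4 fell in both comparisons, by 1.69 and 1.67, and voom called 3 lower in each (Tdpoz4, Zfp352 and Tcstv3). In all 8 and 9 were lower and 4 and 3 higher, with medians of -0.47 and -0.46. Zscan4a was at 17.1 and 14.4 FPKM without injection, 3.40 and 23.7 after PIASy-Mut and 24.5 and 25.6 after PIASy-WT. Limma called 5.76% and 6.01% of all tested genes lower and 1.03% and 0.82% higher. By voom these shares were 11.8% and 11.7% lower and 4.99% and 3.31% higher. Tcstv3 fell by 1.39 against PIASy-Mut (limma adjusted P=0.0499) and its value against non-injection was -1.14 (limma adjusted P=0.0731, voom adjusted P=0.0170). Its call against PIASy-Mut held in 3 of 16 alternatives. Among the 6 tested blastocyst markers Krt18 rose by 2.21 against non-injection, read at 1.05 and 1.26 FPKM without injection, at 3.46 and 5.74 FPKM after PIASy-Mut and at 10.8 and 7.46 FPKM after PIASy-WT. The difference of PIASy-WT from PIASy-Mut was 0.86 (limma adjusted P=0.220), and that of PIASy-Mut from non-injection was 1.35 (limma adjusted P=0.879). Against PIASy-Mut limma called 0 of the 6, with 2 at an unadjusted P under 0.05, and voom called 1 higher, the pluripotency factor gene Sox2. Sox2 had 11 and 1 fragments without injection, 0 and 0 after PIASy-Mut and 8 and 8 after PIASy-WT, so that call rests on a group at 0 and non-injection replicate 1 lay above both PIASy-WT libraries in FPKM. Of the 3 tested cumulus cell markers Amhr2 fell by 1.86 against non-injection, from 22 and 17 fragments to 3 and 4. The other 2 were higher there, and the list's median was 0.29. Tnfaip6 was read at 1.72 and 2.07 FPKM without injection, at 2.83 and 5.37 FPKM after PIASy-Mut and at 4.85 and 5.09 FPKM after PIASy-WT. Against PIASy-Mut 0 of 3 were called by limma or voom, with 1 at an unadjusted P under 0.05. The 1 tested sperm marker was not called. The calls against non-injection held in 9 of 16 alternatives for Mest, 9 for Krt18, 8 for Amhr2, 10 for Zp3 and 10 for Tdpoz4, and those against PIASy-Mut in 10 for Zp3 and 7 for Tdpoz4.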
